A study of Mus musculus with 6 samples.

Results

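The genes described here are 9 genes of the urea cycle and of ammonia handling in liver, of 55414 annotated genes in the deposited expression table. They were chosen by symbol: Cps1, Otc, Ass1, Asl and Arg1, which encode the enzymes of the cycle, Nags and Slc25a15, which serve its mitochondrial steps, and Gls2 and Glud1, which release ammonia from glutamine and glutamate. All 9 had a row in the table, and all 9 passed the filter on low values (a mean of 1 FPKM or more over the 6 libraries) that 11134 genes passed. Liver RNA came from male mice aged 12 weeks that had been fasted for 16 hours. The 2 control libraries carried the genotype Gapfl, a floxed allele of the glycolytic enzyme gene Gapdh, and drank plain water. The 2 libraries of water knockouts were GapAlb KO, with Gapdh deleted in hepatocytes, and these mice also drank plain water. The 2 libraries of serine knockouts came from GapAlb KO mice given 5% serine to drink. The Cre driver behind GapAlb KO is not spelled out in the sources used here, and controls given serine were not analysed here, so an effect of serine outside the knockout was not tested. RNA of 2 mice was pooled for each library, and p-values therefore rest on the spread between pools, not between single mice.

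The urea cycle turns ammonia, which is toxic, into urea, and it runs mainly in periportal hepatocytes. Its first steps take place in mitochondria, where N-acetylglutamate made by NAGS switches on CPS1, CPS1 joins ammonia and bicarbonate into carbamoyl phosphate, and OTC passes the carbamoyl group to ornithine to give citrulline. Citrulline leaves through the SLC25A15 carrier, and ASS1, ASL and ARG1 complete the cycle in the cytosol, with aspartate as the second nitrogen donor. Fasting and glucagon are known to raise the expression of several of these genes in liver, since amino acids then serve as a source of glucose.

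Promoter sequences are shown for 3 of the genes because their values lay on different sides of the controls. Ass1 and Slc25a15 stood higher in all 4 knockout libraries than in both control libraries, and Otc stood lower. Such a position was common, with 27.2% of all genes tested wholly higher and 11.2% wholly lower. None of the 3 genes passed the threshold after adjustment in limma in any comparison. For Slc25a15 on water the log2 change was 0.28 (interval -0.19 to 0.75, limma, adjusted p = 0.448). The sequences come from RefSeq on GRCm38.p6, in which 5 of the 9 genes had an entry (Ass1, Glud1, Nags, Otc and Slc25a15). Each run is the 250 bases just before the annotated start, written 5′ to 3′ on the gene's strand. For Slc25a15, which had 2 annotated starts, the window of the outermost start is printed. Capitals mark matches to any of 7 motifs on either strand. The motifs searched were the TATA box (TATAAA), the CCAAT box (CCAAT), the GC box (GGGCGG), a C/EBP motif (TTGCNNAA), the core of the cAMP response element (TGACG), an HNF4 motif (CAAAGTNCA) and a nuclear receptor core (AGGTCA).
Ass1, chr2:31470020-31470269, plus strand: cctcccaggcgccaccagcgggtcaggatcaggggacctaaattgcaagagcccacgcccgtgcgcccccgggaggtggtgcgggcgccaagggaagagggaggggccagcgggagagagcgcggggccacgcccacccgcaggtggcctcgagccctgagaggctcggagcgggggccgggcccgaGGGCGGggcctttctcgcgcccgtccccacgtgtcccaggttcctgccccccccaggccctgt
Slc25a15, chr8:22398622-22398871, minus strand: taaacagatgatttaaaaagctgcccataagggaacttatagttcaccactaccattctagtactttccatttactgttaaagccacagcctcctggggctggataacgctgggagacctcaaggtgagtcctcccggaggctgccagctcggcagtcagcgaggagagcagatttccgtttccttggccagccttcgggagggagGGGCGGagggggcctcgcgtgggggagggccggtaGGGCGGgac
Otc, chrX:10252055-10252304, plus strand: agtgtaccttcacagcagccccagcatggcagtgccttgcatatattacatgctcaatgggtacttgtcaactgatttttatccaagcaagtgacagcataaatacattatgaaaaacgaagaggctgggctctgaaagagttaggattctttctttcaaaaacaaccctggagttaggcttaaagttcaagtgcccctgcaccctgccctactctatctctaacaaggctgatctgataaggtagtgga
The Ass1 window held 1 GC box, which began 63 bases before the start. The Slc25a15 window held 2 GC boxes, which began 44 and 9 bases before the start. The Otc window held none of the 7 motifs, which says only that these letters are not in it. A GC box was found in 32.7% of all 32851 RefSeq windows of the same length, so a match is a common feature. GC boxes were also in the windows of Nags (2) and Glud1 (3), and in that of the second Slc25a15 start (5). The libraries of Nags and Glud1 overlapped between the water knockouts and controls. On serine both genes lay above both controls, as did 41.5% of all genes tested. For Glud1 the gap was slight, with 230.3 FPKM in the lower serine library and 229.6 in the higher control. The bases G and C made up 75.6% of the Ass1 window, 57.6% of the Slc25a15 window and 43.6% of the Otc window, 55.6% of that of Nags, 82% of that of Glud1 and 80.4% of that of the second Slc25a15 start, against a median of 52.4% over all windows.

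FPKM are fragments counted per gene, divided by the gene's length and by the number of mapped fragments, so a comparison between genes also rests on the lengths used. The lengths listed for the 9 genes ran from 2228 bases (Arg1) to 5629 (Slc25a15), with Otc at 4241 and Cps1 at 5555. Whether they match the messages made in these livers was not tested. The deposited values summed to 787332 to 869451 per library, and steps between low values implied about 17.3 M to 19.2 M fragments, with 75.4% to 77.6% of the low values at whole multiples where chance gave 17.3% to 19.0%. On that estimate the scarcest of the 9, Nags, rested on at least about 1555 fragments in each library, a counting error of 2.54%. Gapdh measured 1091 and 1391 FPKM in the controls, 23.8 and 17.0 in the water knockouts, and 20.0 and 23.5 in the serine knockouts. Its log2 change was -5.90 on water and -5.80 on serine (limma, adjusted p = 0.000352 and 0.000343). The 8 hepatocyte markers summed to 56236 to 61847 FPKM in the controls, 46671 to 56992 in the water knockouts and 49112 to 53304 in the serine knockouts. Alb alone, at 31906 to 43650 FPKM, made up most of each sum. Sums of other marker lists are given for controls, water knockouts and serine knockouts in turn. The 6 cholangiocyte markers summed to 16.6 to 22.2, 8.72 to 13.5 and 10.4 to 20.4 FPKM, and the 7 Kupffer cell markers to 78.3 to 92.3, 81.2 to 97.1 and 93.97 to 97.8. The 6 stellate cell markers summed to 50.1 to 66.5, 61.5 to 74.0 and 77.0 to 91.3 FPKM, mostly Dcn (39.3 to 69.6 FPKM). Singly, Dcn, Lrat, Reln and Pdgfrb lay above both controls on serine, while Col1a1 and Col3a1 overlapped with them. On serine the stellate sum lay above both controls, as did the Kupffer sum and the endothelial and blood sums given below. The same held on serine for 41.5% of all genes tested. The 6 endothelial markers summed to 94.5 to 99.2 FPKM in the controls and were higher in all 4 knockout libraries, at 99.99 to 105.9 and 105.2 to 116.6. Singly, Stab2 and Kdr lay above both controls in all 4, while Clec4g, Pecam1, Lyve1 and Fcgr2b overlapped with them. Fcgr2b stood at 19.0 and 23.2 FPKM in the water knockouts and at 23.4 and 26.0 in the controls. Of all genes tested, 27.2% lay wholly higher in the 4 knockout libraries. The 6 leukocyte markers summed to 5.29 to 7.19, 5.93 to 6.06 and 3.76 to 3.84 FPKM, lowest on serine, though Ptprc and Cd79a singly stood above both controls there. The 3 blood markers summed to 661 to 694, 445 to 941 and 840.5 to 848 FPKM. The 3 pancreas markers summed to 18.3 to 24.6 FPKM in the controls and were lower in all 4 knockout libraries, at 7.31 to 10.6 and 13.8 to 15.03. This sum was almost wholly Cela1 (6.84 to 23.4 FPKM), with Prss2 at no more than 0.77 and Cpa1 at no more than 0.45. Of all genes tested, 11.2% lay wholly lower in the 4 knockout libraries. The 3 kidney markers, of which Umod and Kap were listed at 0 in every library, summed to at most 0.18 FPKM. The part of these shifts in the changes described below was not tested. Over all genes tested, limma with Benjamini-Hochberg adjustment called 135 genes in the knockout on water against control (90 higher and 45 lower, or 61 and 48 with median-of-ratios scaling). It called 131 in the knockout on serine against control (95 higher and 36 lower, 16 and 20 with median-of-ratios scaling, 327 and 58 with TPM scaling), and 0 between serine and water in knockouts.

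In the fasted control livers the cycle's enzymes fell into a high and a low class by FPKM. Ass1 led with 2164 ± 149.7 FPKM (SD, n = 2), followed by Arg1 with 1837 ± 141, Asl with 1293 ± 8.80 and Cps1 with 1261 ± 252. The libraries of Asl and Cps1 overlapped, while every other neighbour in the order lay apart. Gls2 stood at 266 ± 15.9 FPKM, Glud1 at 229.5 ± 0.141, Slc25a15 at 163 ± 2.72, Otc at 122 ± 13.7 and Nags at 39.1 ± 2.90. Otc, although it encodes the enzyme that follows CPS1, had an FPKM far below that of Cps1, with 10.9 and 9.61 Cps1 FPKM for each Otc FPKM. The size of that gap also depends on the gene lengths used. In both knockout groups Cps1 ranked second by mean, and neighbours among the 4 abundant enzymes overlapped in their libraries. Asl, the last of the 4 there, lay apart from the gene that followed it. Otc and Nags stayed at the low end in every group.

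**Figure D1:**
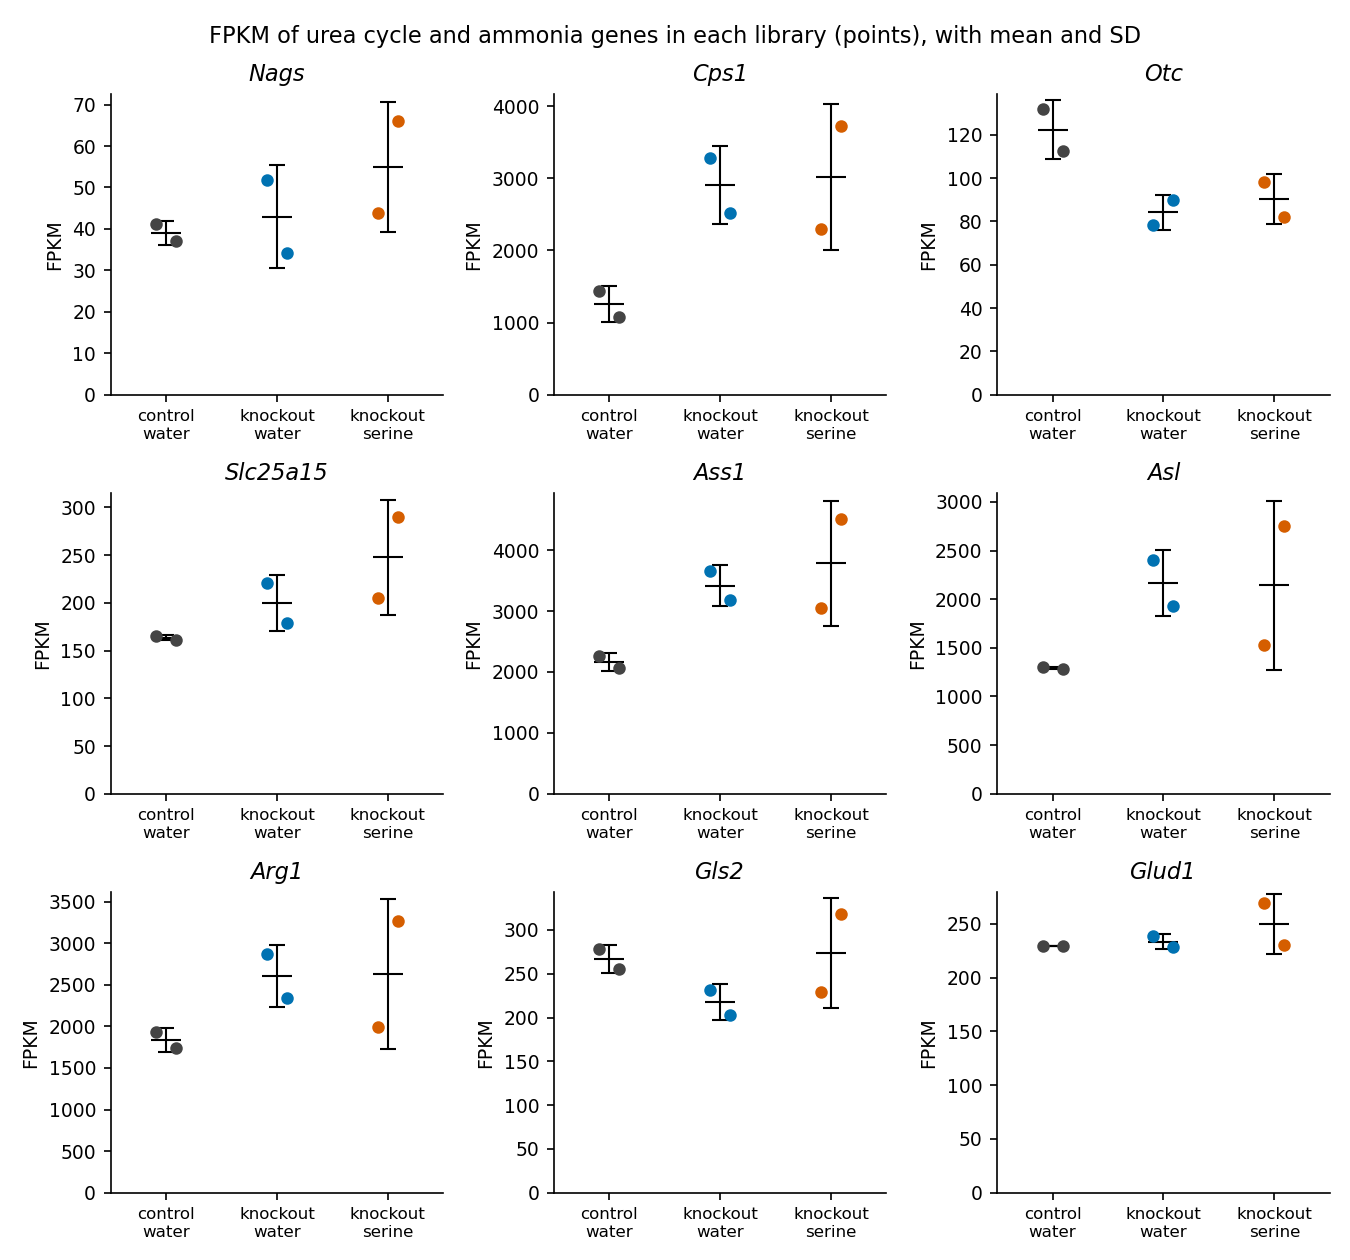
FPKM of each gene (linear axis from 0) in the 2 libraries of each group, with the mean and SD drawn in black and replicate 1 to the left of replicate 2. All 4 knockout libraries lie above both control libraries for Cps1, Ass1, Asl, Arg1 and Slc25a15 and below both for Otc, and Glud1 stays between 228 and 269 FPKM. Of all genes tested, 27.2% lie wholly above and 11.2% wholly below in that sense.

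The first question is how the genes stood when hepatocytes lacked Gapdh and the mice drank water. None of the 9 passed an adjusted p of 0.05, where 1.21% of all genes did. At an unadjusted p under 0.05 there were 4 of 9 (Cps1, Ass1 and Asl higher, Otc lower), where 21.6% of all genes lay. The libraries of the 2 groups did not overlap for 5 genes that were higher (Cps1, Ass1, Asl, Arg1 and Slc25a15) and 2 that were lower (Otc and Gls2). Over all genes tested, 34.4% were higher and 20.9% lower in that sense. With 2 libraries a group, an exact permutation test of a single gene cannot go below p = 0.333. The median log2 change of the 9 was 0.28, beside 0.084 over all genes tested. In bulk liver, fewer or more cells of a type cannot be told apart from less or more RNA per cell.

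Cps1 (ENSMUSG00000025991, chromosome 1, 67162185 to 67270418, plus strand, GRCm39), the gene of the enzyme that brings free ammonia into the cycle, differed most. It stood at 1439.5 and 1083 FPKM in the controls, at 3283 and 2519 in the water knockouts and at 2298 and 3728 in the serine knockouts. Every knockout library lay above both controls, with the lowest of them, knockout on serine 1, still well clear of the higher control. The mean was 2901 ± 540.3 FPKM in the knockout on water against 1261 ± 252 in the control (SD, n = 2). The log2 change was 1.20 (95% interval 0.54 to 1.87, limma, adjusted p = 0.0877, higher in 2 of 2 knockout libraries), and 2.02% of all genes had a higher one. Over 16 alternative settings it ranged from 1.00 to 1.41, with adjusted p-values from 0.0601 to 0.371.

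Nags (ENSMUSG00000048217, chromosome 11, 102036339 to 102040303, plus strand), whose product makes the activator of CPS1, stood at 41.1 and 37.0 FPKM in the controls and at 51.8 and 34.1 in the water knockouts. The water knockouts thus straddled the controls, and the log2 change of 0.11 (interval -0.52 to 0.74, limma, adjusted p = 0.840) turned negative without knockout on water 1 (-0.19) and was 0.41 without knockout on water 2. On serine Nags stood at 43.8 and 66.1 FPKM, both above the controls. An antisense long noncoding RNA gene, Gm11586, overlaps Nags and was listed at 8.06 to 15.7 FPKM. Whether fragments were assigned by strand is not given in the sources used here, so reads of the pair may not be fully told apart.

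Otc (ENSMUSG00000031173, chromosome X, 10118544 to 10187263, plus strand), the next mitochondrial enzyme, lay in the opposite direction to Cps1. It stood at 132 and 112.7 FPKM in the controls, at 78.4 and 89.8 in the water knockouts and at 98.3 and 82.0 in the serine knockouts. All 4 knockout libraries lay below both controls. The log2 change on water was -0.54 (interval -0.91 to -0.16, limma, adjusted p = 0.128, lower in 2 of 2 knockout libraries), and 8.46% of all genes had a lower one. Otc stayed lower under all 16 alternatives (-0.65 to -0.42).

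Slc25a15 (ENSMUSG00000031482, chromosome 8, 22865567 to 22888613, minus strand), the carrier that exchanges cytosolic ornithine for mitochondrial citrulline, stood at 165 and 161 FPKM in the controls and at 220.4 and 179 in the water knockouts. The lower knockout library lay just above the higher control, and the log2 change was 0.28 (interval -0.19 to 0.75, limma, adjusted p = 0.448). It was 0.13 without knockout on water 1 and 0.43 without knockout on water 2. On serine it stood at 204.5 and 290.3 FPKM, both above the controls.

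Ass1 (ENSMUSG00000076441, chromosome 2, 31360219 to 31410684, plus strand), which condenses citrulline with aspartate and was the most abundant of the 9 in every group, stood at 2270.0 and 2058 FPKM in the controls. It stood at 3655 and 3184 in the water knockouts and at 3056 and 4507 in the serine knockouts, all above the controls. The mean on water was 3419 ± 333 FPKM against 2164 ± 149.7 (SD, n = 2). The log2 change was 0.66 (interval 0.15 to 1.16, limma, adjusted p = 0.150). A pseudogene copy of Ass1, Gm5424, was listed at no more than 0.35 FPKM in any library.

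Asl (ENSMUSG00000025533, chromosome 5, 130040099 to 130058088, minus strand), which splits argininosuccinate into arginine and fumarate, stood at 1299 and 1286 FPKM in the controls and at 2404 and 1928 in the water knockouts. Both knockout libraries were higher, and the log2 change was 0.74 (interval 0.064 to 1.41, limma, adjusted p = 0.199). Arg1 (ENSMUSG00000019987, chromosome 10, 24791119 to 24803382, minus strand), which releases urea and regenerates ornithine, stood at 1937 and 1737 FPKM in the controls and at 2870.1 and 2341 in the water knockouts. Its knockout libraries were higher too, with a log2 change of 0.50 (interval -0.10 to 1.10, limma, adjusted p = 0.305).

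The genes that release ammonia had values below or near those of the controls. Gls2 (ENSMUSG00000044005, chromosome 10, 128030326 to 128045873, plus strand), the liver glutaminase, stood at 278 and 255 FPKM in the controls and lower, at 232 and 203, in the water knockouts. Its log2 change was -0.30 (interval -0.73 to 0.14, limma, adjusted p = 0.392). Glud1 (ENSMUSG00000021794, chromosome 14, 34032684 to 34067222, plus strand), the glutamate dehydrogenase, stood at 229.4 and 229.6 FPKM in the controls and at 238 and 228 in the water knockouts, which straddled them. Its log2 change was 0.024 (interval -0.28 to 0.33, limma, adjusted p = 0.932), the narrowest interval of the 9. Gls2 overlaps Spryd4 on the other strand (17.8 to 20.0 FPKM) and the noncoding gene Gm52965 on its own strand (2.09 to 6.54 FPKM).

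**Figure D2:**
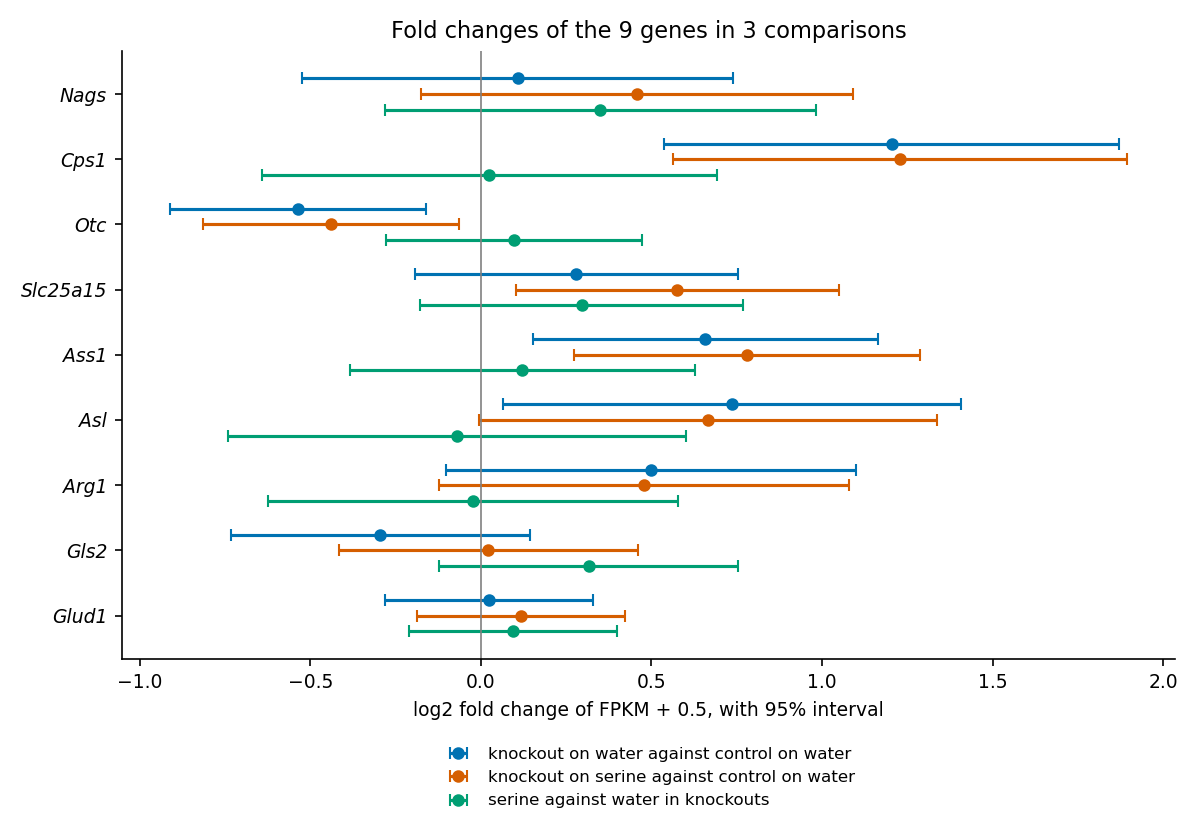
Log2 fold change of FPKM + 0.5 (x axis) with its 95% interval from limma for the 9 genes (y axis) in the 3 comparisons, coloured by comparison; the 2 comparisons with control share the control libraries. Cps1 lies at 1.20 and 1.23 and Otc at -0.54 and -0.44 against control, and every interval of serine against water in knockouts includes 0.

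The knockout on serine was next set against the same control libraries, so these values are not independent of those on water. Again none of the 9 passed an adjusted p of 0.05, where 1.18% of all genes did. At an unadjusted p under 0.05 there were 4 of 9 (Cps1, Ass1 and Slc25a15 higher, Otc lower), where 25.7% of all genes lay. Libraries did not overlap for 7 genes that were higher (all but Otc and Gls2) and for Otc, which was lower, beside 41.5% and 15.5% of all genes. The median log2 change of all genes was 0.16 here and 0.015 with median-of-ratios scaling, so the changes of single genes are also given relative to that median. The log2 change of Cps1 was 1.23 (interval 0.56 to 1.89, limma, adjusted p = 0.0684), or 1.07 relative to the median gene. Ass1 differed by 0.78 (interval 0.27 to 1.29, limma, adjusted p = 0.0919), or 0.62 relative to the median gene, and by 0.50 without knockout on serine 2. Otc differed by -0.44 (interval -0.82 to -0.065, limma, adjusted p = 0.144), or -0.60 relative to the median gene. Slc25a15 differed by 0.58 (interval 0.10 to 1.05, limma, adjusted p = 0.135), or 0.41 relative to the median gene. Without knockout on serine 2 the change of Slc25a15 was 0.32, and without knockout on serine 1 it was 0.83.

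Asl stood at 1527 and 2756 FPKM in the serine knockouts, and its log2 change was 0.67 (interval -0.0062 to 1.34, limma, adjusted p = 0.197). It was 0.24 without knockout on serine 2 and 1.09 without knockout on serine 1. Arg1 stood at 1996 and 3267 FPKM, the lower library only just above the higher control, with a change of 0.48 (limma, adjusted p = 0.282). That change was 0.12 without knockout on serine 2 and 0.83 without knockout on serine 1. Nags differed by 0.46 and Glud1 by 0.12, with adjusted p-values of 0.319 and 0.596 in limma, and Glud1 stood at 269 and 230.3 FPKM. The change of Nags was 0.16 without knockout on serine 2 and 0.75 without knockout on serine 1, and that of Glud1 was 0.23 and 0.0050 in these fits. Gls2 stood at 229 and 318 FPKM, on both sides of the controls, with a change of 0.021 (interval -0.42 to 0.46) that was -0.21 without knockout on serine 2 and 0.26 without knockout on serine 1. The change of Gls2 was negative with median-of-ratios scaling, and so was that of Glud1. Relative to the median gene, the changes on serine were 0.50 for Asl, 0.31 for Arg1, 0.30 for Nags, -0.045 for Glud1 and -0.14 for Gls2. Taking the 4 knockout libraries together against the 2 controls, 5 of the 9 genes lay wholly above and Otc wholly below, beside 27.2% and 11.2% of all genes.

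Serine against water within the knockouts gave no separation in any of the 9 genes. The libraries of the 2 groups overlapped for every one of them, whereas they did not overlap for 37.8% of all genes. No member passed an adjusted p of 0.05 in limma, and neither did any other gene (0% of 11134). None of the 9 reached an unadjusted p of 0.05, where 7.23% of all genes lay. The largest log2 changes were those of Nags with 0.35 (interval -0.28 to 0.98), Gls2 with 0.32 (interval -0.12 to 0.75) and Slc25a15 with 0.30 (interval -0.18 to 0.77), all positive under each of the 16 alternatives. Leaving out 1 library nevertheless took Nags down to 0.053 (without knockout on water 2), Gls2 to 0.080 and Slc25a15 to 0.043 (both without knockout on serine 2), and up to 0.65, 0.55 and 0.55. The change was 0.12 for Ass1, 0.097 for Otc, 0.093 for Glud1, 0.025 for Cps1, -0.022 for Arg1 and -0.070 for Asl, and the sign of each of these 6 turned in at least 1 alternative. For Cps1 the interval ran from -0.64 to 0.69 and for Asl from -0.74 to 0.60, so at this replication a difference of that size in either direction could not be told from none.

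The 2 pools of a knockout group also differed from each other. Between the 2 libraries on serine, the log2 difference was 0.85 for Asl, 0.71 for Arg1, 0.70 for Cps1 and 0.56 for Ass1, where the median gene differed by 0.23. In 7 of the 9 genes (all but Otc and Glud1), knockout on water 1 lay above knockout on water 2 and knockout on serine 2 above knockout on serine 1, an arrangement seen in 27.4% of all genes tested and noticed after the values were seen. Knockout on serine 2 held the highest value of 7 of the 9 genes, and control 2 the lowest of 5. The same 2 knockout libraries had the lower shares of mitochondrially encoded RNA, 9.70% and 8.89% of all FPKM, against 12.6% in knockout on water 2, 12.0% in knockout on serine 1 and 12.3% and 12.2% in the controls. Their hepatocyte markers, mostly Alb, also summed to less, 46671 and 49112 FPKM, where the other knockout libraries had 56992 and 53304. Within that list Tdo2 and Hnf4a went the other way and the rest did not. Tdo2 stood at 2628 and 1728 FPKM, against 1998 and 1315 in the other knockout libraries. Hnf4a stood at 152 and 150 FPKM, against 129 and 143. The part of these differences in the values above was not tested.

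Ratios within a library do not depend on how libraries are scaled. The ratio of Cps1 to Otc FPKM was 10.9 and 9.61 in the controls, 41.9 and 28.1 in the water knockouts and 23.4 and 45.5 in the serine knockouts. Since Cps1 lay above and Otc below the controls in every knockout library, the ratio had to separate the groups and is a description of its size only. Set against Glud1, the steadiest of the 9, Cps1 gave 6.27 and 4.72 in the controls, 13.8 and 11.03 on water and 8.54 and 16.2 on serine. Glud1 was picked for its steadiness in these same libraries, so this ratio too had to separate the groups and only describes size. The 9 genes together made up 0.953% and 0.801% of all FPKM in the controls. They made up 1.66% and 1.34% in the water knockouts and 1.21% and 1.92% in the serine knockouts. Most of each share came from Ass1, Arg1, Asl and Cps1, each above both controls in every knockout library. The separation of the shares is therefore not a further result. Counted without mitochondrially encoded genes the shares were 1.09% and 0.912%, then 1.83% and 1.53%, and then 1.37% and 2.11%, which leaves the order of the libraries as it was.

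**Figure D3:**
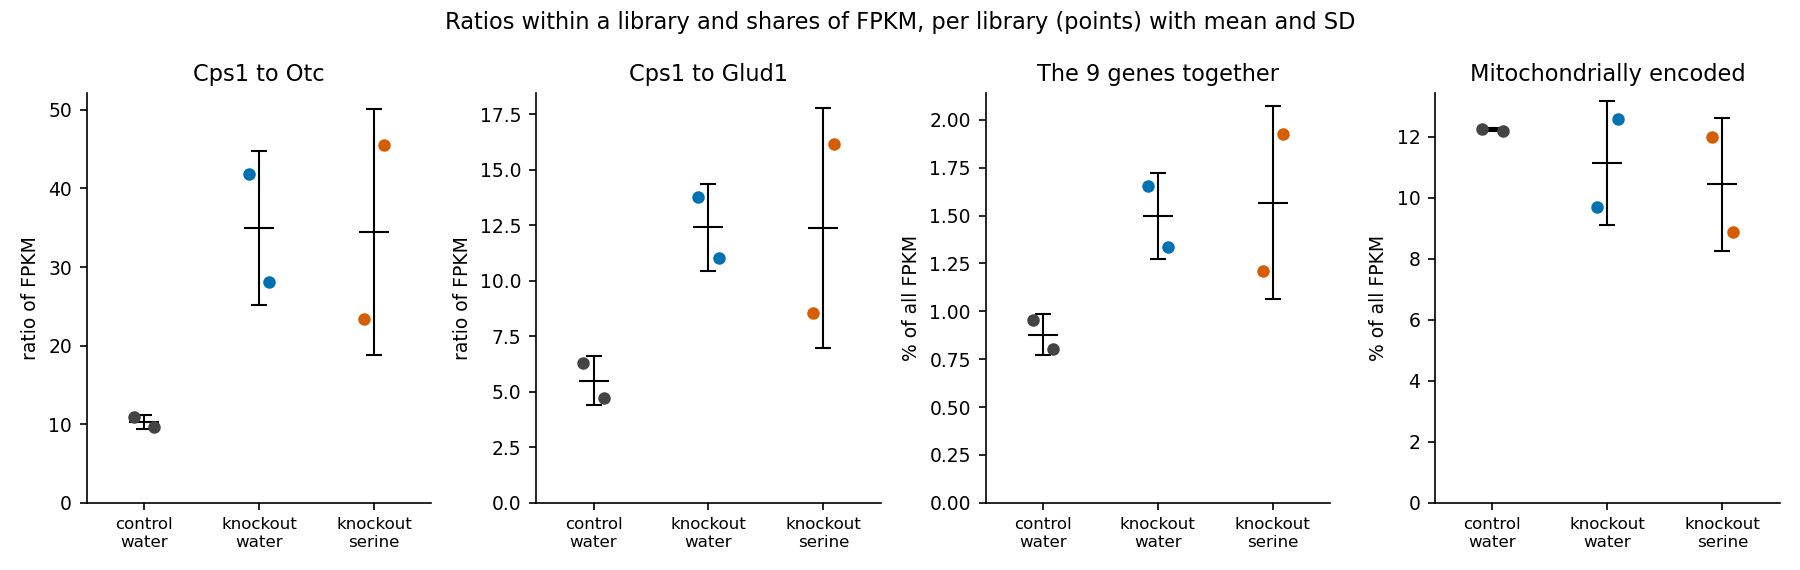
Left to right: the Cps1 to Otc ratio, the Cps1 to Glud1 ratio, the share of all FPKM held by the 9 genes and the share held by mitochondrially encoded genes, in each library (points, replicate 1 left) with mean and SD; every axis starts at 0. The Cps1 to Otc ratio is 9.61 and 10.9 in the controls and 23.4 to 45.5 in the knockouts, and the 2 knockout libraries with the larger share for the 9 genes have the smaller mitochondrial share.

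The patterns of the 9 genes over the 6 libraries were compared as a description, by the root mean square difference of log2 values centred on each gene's mean. Asl and Arg1 differed by 0.12, Nags and Slc25a15 also by 0.12, and Ass1 and Asl by 0.13. Among the 9, Cps1, with a wider range than the others, came nearest to Ass1 at 0.26. In each case other genes lay nearer. By nearness, Arg1 ranked 17 for Asl and Asl 46 for Arg1. Slc25a15 ranked 24 for Nags and Nags 182 for Slc25a15. Asl ranked 114 for Ass1, Ass1 25 for Asl and Ass1 150 for Cps1. Among 6947 other genes with a mean of 5 FPKM or more, those closest to Cps1 were Enpp1 (0.061), Tmx4 (0.068) and Csrp2 (0.10). Closest to Ass1 were Prmt9 (0.030), Rbmx (0.047) and Gars (0.054), and closest to Asl were Gys2 (0.096), Fbxo44 (0.097) and Kctd13 (0.10). All genes of a library share its depth and composition, so nearness says nothing of shared function.

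Beyond the 9 genes, 22 genes of arginine, ornithine and urea handling were listed, of which 15 could be tested and none was called in any comparison. Their median log2 change was -0.12 on water (0.084 over all genes) and 0.030 on serine (0.16 over all genes) against control. Arg2, the second arginase, was listed at 0.15 to 0.39 FPKM, and Slc25a2, a second ornithine carrier, at no more than 0.11, so neither was tested. Slc25a13, the aspartate and glutamate carrier citrin that supplies aspartate to ASS1, stood at 111 and 106 FPKM in the controls and at 73.4 and 84.5 in the water knockouts (log2 change -0.46, limma, adjusted p = 0.125). Sirt3, a mitochondrial deacetylase that acts on OTC, stood at 59.6 and 60.2 FPKM in the controls and at 33.97 to 44.6 in the 4 knockout libraries (log2 change -0.56 on water and -0.62 on serine, limma, adjusted p = 0.131 and 0.0919). Azin1, which counters the inhibitor of ornithine decarboxylase, had a change of -0.44 on water (limma, adjusted p = 0.156). Car5a, the mitochondrial carbonic anhydrase that provides bicarbonate to CPS1, stood at 28.6 and 29.8 FPKM in the water knockouts and at 48.4 and 43.5 on serine. Its change between the 2 was 0.64 (limma, unadjusted p = 0.00773, adjusted p = 0.643), and 0.51 on serine against control (limma, adjusted p = 0.129). Sirt5, which deacylates CPS1, stood lower on serine, at 18.2 and 19.5 FPKM, than on water, at 26.2 and 28.9 (log2 change -0.53, limma, adjusted p = 0.643). Odc1, which makes polyamines from ornithine, differed by 0.61 between serine and water and by 0.54 between serine and control (limma, adjusted p = 0.675 and 0.162).

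Of 23 genes for ammonia release, glutamine and transamination, 22 were tested. Ctps, which uses glutamine nitrogen to make CTP, stood at 1.39 and 2.20 FPKM in the controls, at 5.81 and 6.23 in the water knockouts and at 4.59 and 4.78 on serine. It rose by 1.53 on the log2 scale on water (limma, adjusted p = 0.0393) and was the 1 called gene of the list. On serine its change of 1.20 did not pass (limma, adjusted p = 0.0547). The list's median was 0.24 on water and 0.20 on serine against control, and 0.13 between serine and water. Amt and Gldc, parts of the glycine cleavage system that frees ammonia from glycine, stood lower in the water knockouts, with log2 changes of -1.05 and -0.71 (limma, adjusted p = 0.0567 and 0.106). Amt stood at 23.8 and 32.3 FPKM on serine and at 13.6 and 15.3 on water (log2 change 0.92, limma, adjusted p = 0.639). The change of Gldc on serine against control was -0.57 (limma, adjusted p = 0.121). Gpt, the alanine aminotransferase, stood at 327 and 353 FPKM on serine and at 190.1 and 249 in the controls (log2 change 0.64, limma, adjusted p = 0.0918). Between serine and water, Sdsl, a relative of serine dehydratase, differed by -0.67 and Aldh4a1 of proline breakdown by 0.40 (limma, adjusted p = 0.639 and 0.643). Glul, the glutamine synthetase of pericentral hepatocytes, stood at 218 to 281 FPKM over all 6 libraries.

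Of 13 genes for transport of ammonia, glutamine and alanine, 8 were tested. Slc3a2, the heavy chain of several amino acid exchangers, stood at 15.9 and 14.8 FPKM in the controls, at 32.1 and 33.1 in the water knockouts and at 36.3 and 34.2 on serine. It rose by 1.06 on water and by 1.17 on serine on the log2 scale (limma, adjusted p = 0.0306 and 0.0350). The other 7 genes were not called, and the list's median was 0.39 on water and 0.29 on serine. Slc1a2, a glutamate transporter of pericentral hepatocytes, had changes of 0.50 and 0.65 (limma, adjusted p = 0.181 and 0.0950). Slc38a2 had a change of 0.61 on water and Slc38a3, the main glutamine carrier of hepatocytes, 0.56 on serine (limma, adjusted p = 0.264 and 0.202). Between serine and water Slc1a5 differed by -0.71, Slc38a2 by -0.58 and Slc38a3 by 0.40 (limma, adjusted p = 0.701, 0.710 and 0.742).

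All 18 regulators listed for urea cycle transcription were tested. Ppargc1a, a coactivator of the fasting response, stood at 3.43 and 2.47 FPKM in the controls, at 9.81 and 9.54 in the water knockouts and at 7.86 and 11.2 on serine. It rose by 1.57 on water and by 1.54 on serine on the log2 scale (limma, adjusted p = 0.0393 and 0.0454), and no other regulator was called. The list's median was 0.092 on water and 0.061 on serine. Cebpa, a transcription factor known to act on urea cycle genes, stood at 157 and 167 FPKM in the controls, at 91.6 and 112 in the water knockouts and at 149.8 and 173 on serine. Its change was -0.67 on water against control and 0.67 on serine against water (limma, adjusted p = 0.0809 and 0.639). Ppara, the fatty acid receptor, had changes of 0.86 and 0.69 against control, and Atf4 of the amino acid response 0.61 on serine (limma, adjusted p = 0.113, 0.128 and 0.129). Atf4 was higher on water too, at 63.5 and 43.3 FPKM, beside 49.9 and 48.4 on serine and 29.4 and 35.0 in the controls. Cebpd differed by -0.67 and Klf15, a glucocorticoid target that acts on amino acid breakdown, by 0.23 between serine and water (limma, adjusted p = 0.678 and 0.742).

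Since the cycle is periportal, markers of both zones were counted. Of 14 periportal markers other than the 9 genes, all tested, none was called on water and Aldh1b1 was called on serine. Aldh1b1, a mitochondrial aldehyde dehydrogenase, stood at 37.9 and 26.2 FPKM in the controls and at 72 and 91.3 on serine, and rose by 1.35 on the log2 scale (limma, adjusted p = 0.0485). On water its change of 0.99 did not pass (limma, adjusted p = 0.0764). Pck1 of gluconeogenesis stood at 1920 and 1510 FPKM in the controls and at 3554 and 3048 on water (log2 change 0.95, limma, adjusted p = 0.0602), with a change of 0.91 on serine (limma, adjusted p = 0.0547). Cyp2f2, the periportal cytochrome P450, lay the other way, at 538 and 496 FPKM in the controls and at 264 and 224 on water (log2 change -1.08, limma, adjusted p = 0.0654), with a change of -1.05 on serine (limma, adjusted p = 0.0601). The median of the periportal list was 0.30 on water and 0.33 on serine against control, and 0.21 between serine and water. Apof and Fbp1 differed by 0.43 and 0.41 between serine and water (limma, adjusted p = 0.678 for both). Of 16 pericentral markers, 14 were tested and none was called, with medians of 0.038 on water and 0.29 on serine. Among them Cyp2a5 had changes of 1.29 and 1.36 against control (limma, adjusted p = 0.0636 and 0.0530), Cyp1a2 0.50 on water and Gulo 0.58 on serine (limma, adjusted p = 0.133 and 0.0648). Axin2, Lect2 and Gulo differed by 0.61, 0.32 and 0.32 between serine and water (limma, adjusted p = 0.710, 0.733 and 0.678). A change of zone itself was not tested.

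Each of these calls ended under some alternatives. Those of Slc3a2 and Ppargc1a on water ended without control 1, control 2, knockout on water 1 or knockout on water 2, with adjusted p-values in limma of up to 0.236 and 0.260. Those on serine held in only 1 of the 6 fits that left out a library, the one without knockout on serine 1 (limma, adjusted p = 0.0485 for both). The call of Ctps on water and that of Aldh1b1 on serine ended in all 6 such fits (limma, adjusted p from 0.0535 to 0.251 and from 0.0523 to 0.241). Median-of-ratios scaling ended the calls of Ctps on water and of Ppargc1a and Aldh1b1 on serine (limma, adjusted p = 0.0527, 0.0688 and 0.0700). All 6 calls of these 4 genes, those of Slc3a2 included, ended with no filter on low values (limma, adjusted p from 0.0817 to 0.131) and with no variance trend (from 0.0581 to 0.0824). With only the 4 libraries compared in the fit, the calls of Ctps on water (limma, adjusted p = 0.0560) and of Slc3a2, Ppargc1a and Aldh1b1 on serine (from 0.102 to 0.106) ended.

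**Figure D4:**
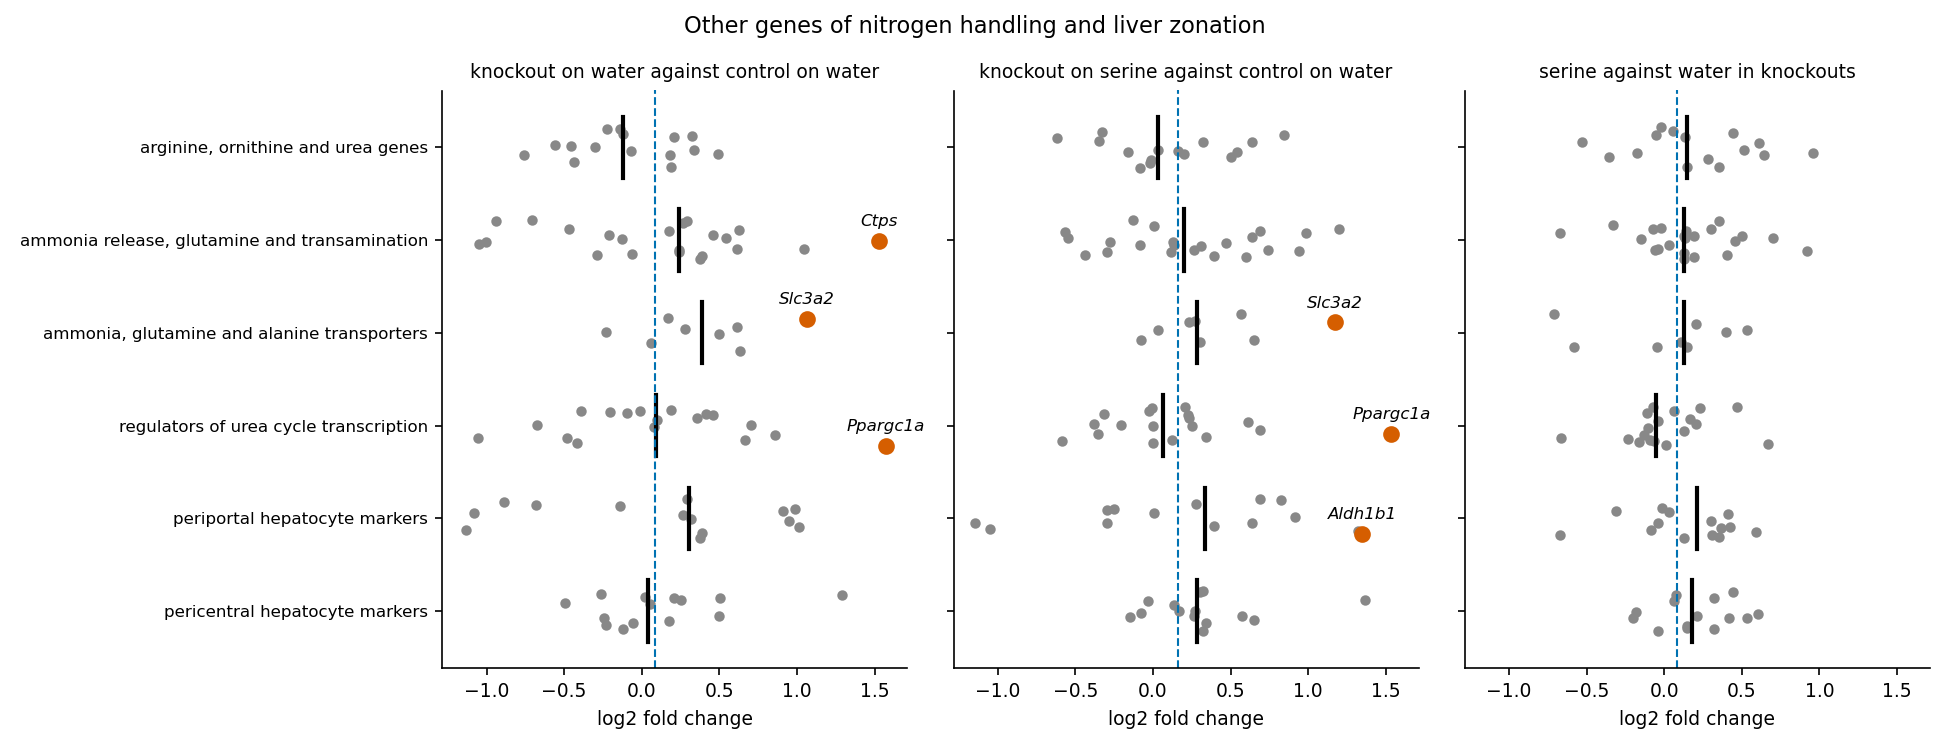
Log2 fold change (x axis) of each tested gene (point) of 6 gene lists (rows) in the 3 comparisons (panels); orange points with names passed an adjusted p of 0.05 in limma, black bars are list medians and the dashed blue line is the median of all genes tested. The named points are Ctps at 1.53, Slc3a2 at 1.06 and 1.17, Ppargc1a at 1.57 and 1.54 and Aldh1b1 at 1.35, and none is named for serine against water.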

How the data were processed

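Expression was read as FPKM values per gene, as the authors deposited them for 6 liver libraries. The submitters' processing notes name bcl2fastq, HISAT2 2.0.5 and the genome GRCm39; none of the sources used here gives the FPKM tool, its annotation or its use of strand. Coordinates of genes are those of the table. Genes with a mean of 1 FPKM or more (11134 of 22014 with any value) were fitted as log2(FPKM + 0.5) on 3 group means in limma 3.58.1 under R 4.3.3 (eBayes with a trend, 3 residual and 3.46 prior degrees of freedom). Fold changes are on that scale, which understates changes of low genes. Two-sided p-values were adjusted by Benjamini-Hochberg over all genes, at a threshold of 0.05; intervals are 95% and not adjusted. The fit was tested on simulated data. The 295 unannotated transcripts were left out. From each of 6 gene lists, called genes and the 3 with the smallest p per comparison were named, and likeness named 3 genes for the genes with the widest range of group means. The genes and lists were chosen with earlier results of these data known. Fragment numbers were inferred from genes of 500 to 1500 bases, at a tolerance of 0.03. Alternatives covered the pseudocount, filter, scaling, variance trend, libraries fitted, replicate number and each library left out.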

Additional observations from a re-analysis of the deposited data

How the results depend on the processing

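No alternative called any of the 9 genes in any comparison, with 0 in each fit that left out 1 library too. Of 432 alternative values of their changes 414 kept their sign. With median-of-ratios scaling Glud1 turned to -0.051 on water and -0.044 on serine against control, Gls2 to -0.14 on serine against control and Cps1 to -0.061 in serine against water. Without control 2 and without knockout on serine 2, Gls2 on serine against control turned to -0.039 and -0.21. Without knockout on water 1, Nags and Glud1 on water turned to -0.19 and -0.0070, and Otc, Asl and Arg1 in serine against water to -4.2e-05, 0.089 and 0.13. In the same comparison Cps1 turned to -0.17 without knockout on water 2, Otc, Asl, Arg1 and Glud1 to -0.033, 0.36, 0.33 and -0.019 without knockout on serine 1, and Cps1 and Ass1 to -0.32 and -0.16 without knockout on serine 2. The range over the 6 fits that left out a library was -0.19 to 0.41 for Nags and -0.0070 to 0.054 for Glud1 on water, and -0.21 to 0.26 for Gls2 on serine against control. In serine against water it was -0.32 to 0.37 for Cps1, -0.033 to 0.23 for Otc, -0.16 to 0.40 for Ass1, -0.50 to 0.36 for Asl, -0.38 to 0.33 for Arg1 and -0.019 to 0.21 for Glud1. The cause was not tested.

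The counts over all genes, 135 on water and 131 on serine against control, moved far more. They were 2 and 3 with no filter, 16 and 8 with no variance trend and 224 and 385 with TPM scaling. They were 237 and 400 without mitochondrially encoded genes in the scaling and 210 and 4 with only the 4 libraries compared. On serine the count was 450 at a mean of 5 FPKM and 36 with median-of-ratios scaling. Leaving out 1 library gave 7 to 215 on water, 4 to 203 on serine and 0 to 6 in serine against water. Correlations of replicate differences over all genes tested were 0.028 and 0.039 between control and each knockout group and -0.20 between the 2 knockout groups. Whether libraries shared a processing batch was not tested. With a replicate block the counts were 4 and 4 against control and 0 for serine against water. The calls of Ctps, Slc3a2, Ppargc1a and Aldh1b1 ended in that fit (limma, adjusted p from 0.0834 to 0.104). Crossing the pairs of the 2 knockout groups, an alternative chosen after seeing the data, gave 0 calls in serine against water. Of 843 alternative values of the other named genes 55 lost a call, 25 gained one and 0 changed sign. With 2 pools a group and 3 residual degrees of freedom, even the change of Cps1 on serine, 1.23 on the log2 scale, did not pass, so changes of that size could be missed. The depth is an estimate.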
